A study of Mus musculus with 7 samples.

Results

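Pancreatic islets hold insulin-secreting β-cells, glucagon-secreting alpha cells, somatostatin-secreting delta cells and a few other endocrine cells. Here 9 genes other than hormones that mark or regulate alpha and delta cells are described, 7 of alpha cells (Irx1, Irx2, Pou3f4, Ttr, Slc7a2, Slc38a5 and Gc) and 2 of delta cells (Hhex and Etv1). They were taken by symbol from the 49315 mouse genes of the count files, and all 9 passed the filter on low counts. Islets of 7-day-old mice were sequenced in 3 control pools from Nrf2lox/lox mice, whose Nrf2 gene is flanked by loxP sites, and in 4 pools from mice with a β-cell specific deletion of Nrf2 (βNrf2KO). Each library was made from RNA of 5 animals, so the spread behind each p-value is that of pools and not of animals. Neither the strain nor the promoter driving Cre recombinase is given in the sources used here. Nrf2 switches on antioxidant genes, and the study addressed its role in the growth of β-cells after birth. The 9 genes are listed as markers or regulators of endocrine cells beside the β-cells, in which the labels place no deletion. The counts are of whole islets, so reads of these genes from β-cells or other cells cannot be told apart.

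Alpha and delta cells arise from the same endocrine progenitors as β-cells, and each lineage is held by its own transcription factors. The homeodomain factors Irx1 and Irx2 and the POU factor Pou3f4 are expressed in the alpha lineage. In the delta lineage the homeodomain factor Hhex is required for somatostatin-expressing cells. Alpha cells are also known for uptake of amino acids, which stimulate glucagon secretion and alpha cell growth, and for carrier proteins that the liver secretes into plasma.

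The promoters of the members differed widely in their CpG content, and the 3 shown span that range, from the CpG-rich starts of the factors Hhex and Irx2 to the CpG-free start of the plasma carrier Gc. RefSeq promoter entries (build GRCm38.p6) were matched by symbol for 6 of the 9 genes, Irx2, Pou3f4, Slc38a5, Gc, Hhex and Etv1, the last with 2 entries. In the 250 bases before the RefSeq start, Hhex held 32 CpG dinucleotides, Irx2 19, Pou3f4 13, Slc38a5 8, Etv1 9 and 1, and Gc 0. The median over all 32851 promoters of the table was 6. The bases before the start of the gene in the files are given 5′ to 3′ with each CpG in capitals, for Irx2 (chr13:72628570-72628819, plus strand, 250 bases), Hhex (chr19:37434591-37434809, plus strand, 219 bases with 26 CpG) and Gc (chr5:89457899-89458148, minus strand, 250 bases).
Irx2: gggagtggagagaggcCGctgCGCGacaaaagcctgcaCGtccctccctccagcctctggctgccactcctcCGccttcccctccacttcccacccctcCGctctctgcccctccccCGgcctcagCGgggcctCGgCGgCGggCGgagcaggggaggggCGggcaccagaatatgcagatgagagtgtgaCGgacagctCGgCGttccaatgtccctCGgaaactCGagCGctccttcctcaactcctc
Hhex: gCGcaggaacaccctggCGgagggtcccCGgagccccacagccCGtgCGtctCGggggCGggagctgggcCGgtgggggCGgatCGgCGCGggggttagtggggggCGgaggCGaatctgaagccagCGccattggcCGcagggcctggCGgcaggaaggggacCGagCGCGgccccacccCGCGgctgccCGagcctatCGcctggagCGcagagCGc
Gc: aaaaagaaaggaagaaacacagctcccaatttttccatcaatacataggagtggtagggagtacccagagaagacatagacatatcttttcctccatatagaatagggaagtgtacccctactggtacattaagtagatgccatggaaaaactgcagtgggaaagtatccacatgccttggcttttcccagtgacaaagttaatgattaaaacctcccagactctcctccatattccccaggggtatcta
GC content of the 250-base windows was 76.0% for Hhex, 68.4% for Irx2 and 42.0% for Gc, against a median of 52.4% over all promoters. The core of the antioxidant response element through which Nrf2 acts, TGACNNNGC on either strand, had no match in the 7 windows, and 10.2% of all promoters held one. The palindromic Iroquois factor site ACANNTGT, searched on both strands, matched once, as ACACGTGT before the RefSeq start of Slc38a5 (chrX:8271350-8271357), and 6.31% of all promoters held it. A match or its absence describes these letters only. That match lies inside the span the files give for Slc38a5.

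The libraries held 18187382 to 25373105 counts, and a count of 0 allows up to 3 counts, or 0.0997 to 0.198 CPM, counts scaled to the normalized library size (counting error only). The Cre sequence had 23 to 73 counts in each βNrf2KO pool and 0 in each control pool. Nfe2l2, the gene of Nrf2, ranged from 5.44 to 6.43 log2 CPM in control and from 5.86 to 6.08 in βNrf2KO pools (log2 fold change 0.08 ± 0.23, adjusted p = 0.911 by the edgeR quasi-likelihood test), and counts over the whole gene in whole islets do not check the deletion. The defining markers of alpha cells (Gcg), delta cells (Sst) and β-cells (Ins1, Ins2) were read in every pool. Markers of acinar, ductal, endothelial, mesenchymal, neural, blood and liver cells were also present, and none was at 0 in all pools. Of the acinar markers, however, Ptf1a had counts only in control pool 2 (4), and Pnlip had 0 to 4 per pool. Coordinates are those of the files, which are GRCm38 positions.

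For no member did the difference between the groups exceed the spread between pools. In edgeR's quasi-likelihood fit, with p-values adjusted by Benjamini-Hochberg over 19893 tested genes, 0 of 9 members passed the adjusted p of 0.05, where 0 of all tested genes (0%) did. At unadjusted p under 0.05 there were also 0 members, against 8.46% of all tested genes, and DESeq2 and limma-voom called 0 members. With the pool number as a block, 14 of all tested genes (0.0704%) and 0 members passed, and DESeq2 called 1 gene that is no member, Hmcn2 (0.00295% of those with an adjusted p). The blocked fit draws no difference from βNrf2KO pool 3, which has no control pool of its number. The groups overlapped for all 9, where 7% of all tested genes had groups that did not overlap. The estimates were above 0 for 7 members (49.4% of all tested genes) and below 0 for 2 (50.6%), and their median log2 fold change was 0.12 against -0.0063 over all tested genes. The larger contrast lay inside the groups: control pool 4 was among the 3 highest pools for 9 of 9 members, βNrf2KO pool 4 for 8 and βNrf2KO pool 3 for 7. The share of all tested genes with these pools highest was not counted, so this is not read as particular to the members.

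**Figure D1:**
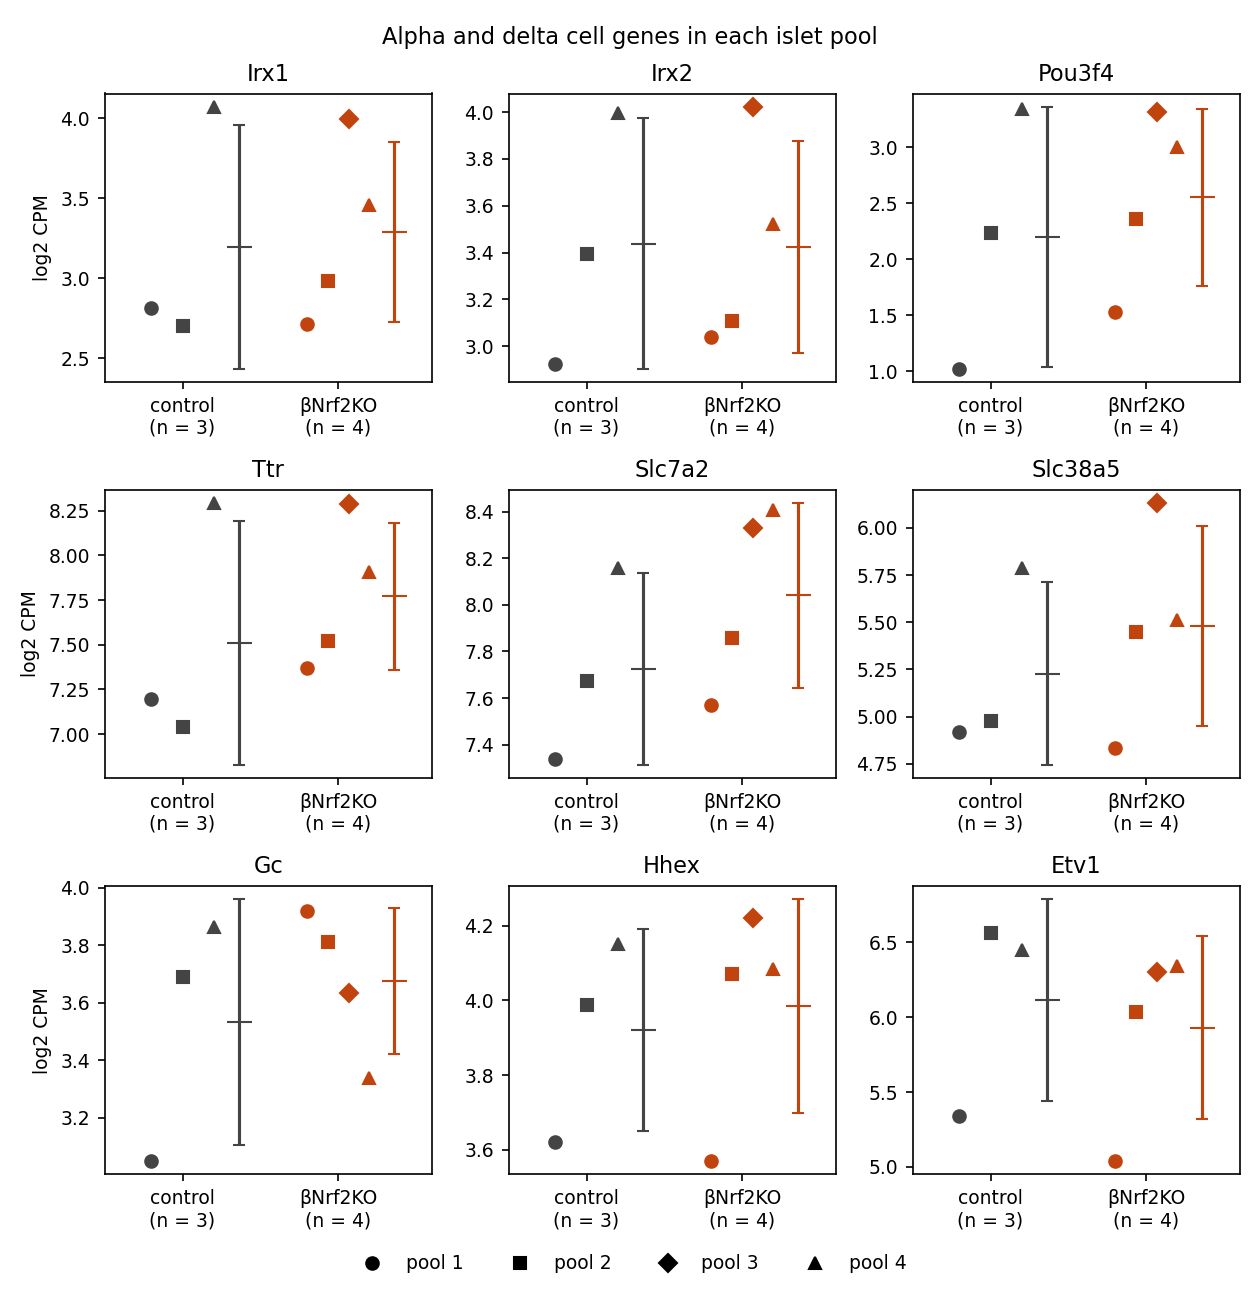
Log2 CPM of the 9 genes (vertical axes, each on its own scale) in the 3 control and 4 βNrf2KO pools; symbols mark the pool number, and bars beside the points give the mean and SD. In most panels control pool 4 and βNrf2KO pools 3 and 4 sit at the top and pool 1 of either group near the bottom, while for Gc βNrf2KO pool 1 is highest.

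Irx1 (ENSMUSG00000060969) and Irx2 (ENSMUSG00000001504), Iroquois homeodomain factors, lie on chromosome 13 in the order Irx1 (71957921 to 71963723, minus strand), Irx2 (72628820 to 72634198, plus strand) and Irx4 (73260479 to 73269608, plus strand) in GRCm38. Gaps of 665 kb and 626 kb separate the 3 genes. In log2 CPM, Irx1 stood at 2.81, 2.70 and 4.07 in the controls (pools 1, 2 and 4) and at 2.72, 2.98, 3.99 and 3.46 in βNrf2KO (pools 1 to 4). Control pool 4 and βNrf2KO pool 3 were high and nearly equal, and the control range enclosed that of βNrf2KO. The log2 fold change of Irx1 was 0.02 ± 0.38 (SE, 95% interval -0.82 to 0.86; edgeR, adjusted p = 0.988). In log2 CPM, Irx2 stood at 2.92, 3.40 and 3.99 in the controls (pools 1, 2 and 4) and at 3.04, 3.11, 4.02 and 3.52 in βNrf2KO (pools 1 to 4). Again control pool 4 and βNrf2KO pool 3 stood highest, and the groups overlapped. Its log2 fold change was -0.03 ± 0.30 (95% interval -0.70 to 0.63; edgeR, adjusted p = 0.975). Both estimates turned sign when single pools were left out, over -0.26 (without βNrf2KO pool 3) to 0.62 (without control pool 4) for Irx1 and -0.27 to 0.30 for Irx2 without the same pools. Irx4, the third gene of the cluster, had 0 counts in all 7 pools.

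Per length, Irx1 was at 1.28, 0.849 and 1.46 times the level of Irx2 in the controls (pools 1, 2 and 4) and at 1.10, 1.27, 1.36 and 1.33 times in βNrf2KO (pools 1 to 4). Irx1 was thus the higher of both in 6 of 7 pools, with control pool 2 as the exception. This ratio does not depend on library size, and it did not differ between the groups beyond their spread (exact two-sided permutation test over 3 and 4 pools, p = 0.743).

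Pou3f4 (ENSMUSG00000056854, chromosome X, 110814280 to 110817207, plus strand), a POU domain factor of alpha cells, varied most. In log2 CPM, Pou3f4 stood at 1.02, 2.24 and 3.34 in the controls (pools 1, 2 and 4) and at 1.52, 2.36, 3.32 and 3.01 in βNrf2KO (pools 1 to 4). Within each group pool 1 was lowest by a wide margin, and the range over the 7 pools, 2.33 log2 units, was larger than that of 97.1% of the 14449 tested genes with a mean of at least 1 log2 CPM, whose median range was 0.88. Its counts ran from 34 to 303. Its estimated log2 fold change was 0.20 ± 0.52 (95% interval -0.96 to 1.35; edgeR, adjusted p = 0.907), and single left-out pools gave -0.21 (control pool 1) to 0.98 (control pool 4).

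Ttr (ENSMUSG00000061808, chromosome 18, 20665250 to 20674324, plus strand) encodes transthyretin, a carrier of thyroid hormone and of retinol-binding protein. In log2 CPM, Ttr stood at 7.19, 7.04 and 8.30 in the controls (pools 1, 2 and 4) and at 7.37, 7.52, 8.29 and 7.91 in βNrf2KO (pools 1 to 4). Control pool 4 and βNrf2KO pool 3 were again level at the top, and the other 2 control pools were the lowest of all 7. The log2 fold change was 0.19 ± 0.31 (95% interval -0.49 to 0.88; edgeR, adjusted p = 0.836), and -0.041 to 0.70 with control pool 2 or control pool 4 left out. An antisense gene, Gm16090, shares 11 exonic bases with it and held 15 to 44 counts.

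Gc (ENSMUSG00000035540, chromosome 5, 89417522 to 89457898, minus strand) encodes the vitamin D binding protein, a member of the albumin family that the liver secretes and alpha cells express. Its pools did not follow the other alpha genes: in log2 CPM it stood at 3.05, 3.69 and 3.86 in the controls (pools 1, 2 and 4) and at 3.92, 3.81, 3.63 and 3.34 in βNrf2KO (pools 1 to 4). βNrf2KO pool 1, low for most other members, was here the highest, and βNrf2KO pool 4 the lowest of its group. The log2 fold change was 0.12 ± 0.24 (95% interval -0.41 to 0.64; edgeR, adjusted p = 0.874), and it was -0.09 without control pool 1. Alb, the albumin gene and defining marker of liver cells, stood at 5.37, 6.44 and 5.93 log2 CPM in the controls (pools 1, 2 and 4) and at 6.99, 6.75, 3.08 and 3.60 in βNrf2KO (pools 1 to 4). Among the controls Alb was highest in pool 2 and Gc in pool 4. Alb was thus low in βNrf2KO pools 3 and 4, the pools of that group in which Gc was also lower. The summed level of the 6 liver markers ran from 75.7 to 116 CPM in control and from 18.3 to 201 CPM in βNrf2KO pools, and its part in the values of Gc was not tested.

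Slc7a2 (ENSMUSG00000031596, chromosome 8, 40862396 to 40922308, plus strand) encodes the cationic amino acid transporter CAT2, which takes up arginine and lysine. In log2 CPM, Slc7a2 stood at 7.34, 7.68 and 8.16 in the controls (pools 1, 2 and 4) and at 7.57, 7.86, 8.33 and 8.41 in βNrf2KO (pools 1 to 4). The groups overlapped, although every βNrf2KO pool was above the control pool of the same number, by 0.23, 0.18 and 0.25 for numbers 1, 2 and 4. Of all tested genes 19.1% were likewise higher in each of the 3 pairs. Slc7a2 differed by a log2 fold change of 0.32 ± 0.24 (95% interval -0.21 to 0.85; edgeR, adjusted p = 0.657), and it stayed above 0 without any 1 of the 7 pools, at 0.14 with control pool 1 left out and 0.56 with control pool 4 left out as its extremes. The long noncoding gene Gm26584 on the opposite strand shares 635 exonic bases with it and held 39 to 490 counts, against 2847 to 9234 for Slc7a2. The strand setting of the counting is not given, so reads of the shared bases cannot be told apart.

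Slc38a5 (ENSMUSG00000031170, chromosome X, 8271133 to 8280179, plus strand) encodes the glutamine transporter SNAT5, which is induced in alpha cells when amino acids are high. In log2 CPM, Slc38a5 stood at 4.92, 4.98 and 5.79 in the controls (pools 1, 2 and 4) and at 4.84, 5.45, 6.13 and 5.51 in βNrf2KO (pools 1 to 4). The lowest and the highest pool were both βNrf2KO. Its log2 fold change was 0.27 ± 0.30 (95% interval -0.39 to 0.92; edgeR, adjusted p = 0.760), from 0.0088 without βNrf2KO pool 3 to 0.61 without control pool 4.

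Hhex (ENSMUSG00000024986, chromosome 19, 37434810 to 37440731, plus strand) is the homeodomain factor of delta cells. In log2 CPM, Hhex stood at 3.62, 3.99 and 4.15 in the controls (pools 1, 2 and 4) and at 3.57, 4.07, 4.22 and 4.08 in βNrf2KO (pools 1 to 4). Pool 1 of each group was low and the others lay close together. Its range, 0.65 log2 units, was the smallest of the 9. The log2 fold change was 0.07 ± 0.21 (95% interval -0.40 to 0.54; edgeR, adjusted p = 0.921), and it was -0.07 with control pool 1 left out and 0.19 with control pool 4 left out.

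Etv1 (ENSMUSG00000004151, chromosome 12, 38779380 to 38868215, plus strand) encodes a transcription factor of the ETS family. In log2 CPM, Etv1 stood at 5.34, 6.56 and 6.45 in the controls (pools 1, 2 and 4) and at 5.04, 6.03, 6.31 and 6.34 in βNrf2KO (pools 1 to 4). Pool 1 was again lowest in both groups. Each βNrf2KO pool was below the control pool of the same number, by 0.30, 0.53 and 0.10 log2 units in size for numbers 1, 2 and 4, as were 17.9% of all tested genes in each of the 3 pairs. Between groups Etv1 differed by -0.19 ± 0.34 (95% interval -0.94 to 0.55; edgeR, adjusted p = 0.847), and -0.49 to 0.0076 with control pool 1 or control pool 2 left out.

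**Figure D2:**
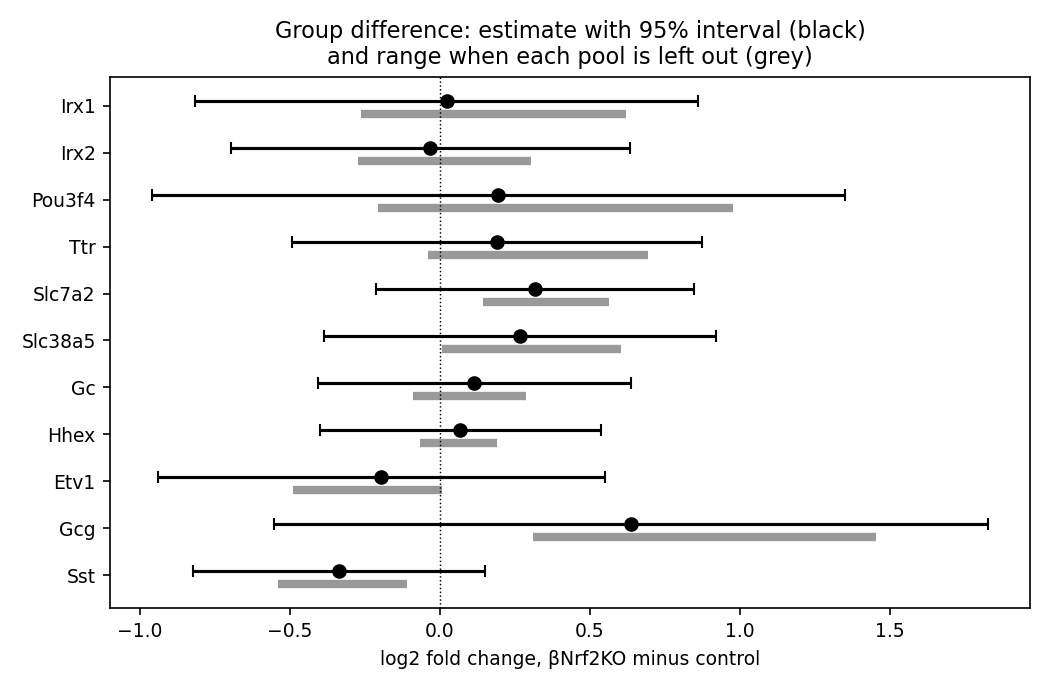
Log2 fold change of the 9 genes and of the hormone genes Gcg and Sst (βNrf2KO minus control, horizontal axis); black points and bars give the edgeR estimate with its 95% interval over 3 and 4 pools, and grey bars the range when each pool was left out. All 11 intervals cover 0, and the widest member interval is that of Pou3f4 (-0.96 to 1.35).

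Levels between genes were compared per length as TPM, counts over exonic length scaled to the same total in each pool. Ttr stood highest, with a median of 391 TPM over the 7 pools (111 to 764), followed by Slc7a2 at 65.9 (23.0 to 137) and Slc38a5 at 50.4 (14.4 to 80.5). Ttr was above Slc7a2 and Slc7a2 above Slc38a5 in 7 of 7 pools, although the ranges overlapped. Etv1 followed at 28.8 TPM (9.82 to 50.9), Hhex at 22.6 (8.44 to 32.5) and Gc at 17.5 (6.35 to 23.2), with Slc38a5 above Etv1, Etv1 above Hhex and Hhex above Gc in 6 of 7 pools each. The remaining factors were lowest, Irx1 at 8.54 TPM (2.77 to 20.9), Irx2 at 6.73 (3.26 to 14.3) and Pou3f4 at 4.48 (0.945 to 10.2). Gc was above Irx1, and Irx2 above Pou3f4, in 7 of 7 pools. Neighbours in this order overlapped in their ranges throughout. All 9 genes kept their place when the 35 genes of the mitochondrial genome were left out of the denominator. That step cannot change the order inside a pool. Without βNrf2KO pool 3, 7 of 9 genes kept their place. TPM levels themselves rose without the mitochondrial genes, for Irx1 in βNrf2KO from 12.1 to 19.9.

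The profiles of the members over the 7 pools were compared next, by the root mean square difference of log2 CPM after each gene's own mean was subtracted. A small value means that 2 profiles lay close in log2 CPM. The size of the swings enters it, so genes that rise and fall together by unlike amounts can lie far apart. Pools 3 and 4 of βNrf2KO and control pool 4 stood high for most members, though Gc was not high in the former 2. The measure is a description over 7 pools that share library and depth. Irx1 was nearest to Ttr (0.14), the closest of 12574 named genes, and next to Rbp4 (0.14). Rbp4, listed here among the delta genes, encodes retinol-binding protein, which transthyretin carries. Irx2 stood in place 27 for Irx1 (0.24). Irx2 itself was nearest to Tcf19 and Melk (0.12 and 0.13). Pou3f4 was nearest to the synaptic vesicle gene Sv2b (0.23), with Gcg in place 21 (0.35).

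The nearest genes of the other members were from none of the lists. Ttr was nearest to Hmmr and Bex1 (0.09 each), Slc7a2 to Bend7 and Pomgnt2 (0.07 each) and Slc38a5 to Polr3g and Bex1 (0.09 and 0.11). Gc was nearest to Mrpl28 and Spata2l (0.08 and 0.10), Hhex to Ctdsp2 and Cbr1 (0.05 each) and Etv1 to B3gat1 and Tbxa2r (0.08 and 0.12). A gene that varies little, such as Hhex, has many neighbours at a small distance. Irx1, Irx2, Ttr, Slc7a2 and Slc38a5 differed from each other by 0.14 to 0.32, and Gc from these 5 by 0.44 to 0.59. The alpha factor Pou3f4 was about as far from the 5 (0.45 to 0.49), and the delta factor Hhex was nearer to them (0.21 to 0.40). The wide range of Pou3f4, 2.33 log2 units, adds to its distances, so they do not tell whether the profiles divide by cell type. Gc was far from Gcg (0.87) and from Alb (1.31), whose pools ranged from 3.08 to 6.99 log2 CPM. Alb lay far from every member, and Gc was the nearest of them to it, before Hhex (1.56), with Pou3f4 farthest (1.99). The delta genes Hhex and Etv1 differed from Sst by 0.21 and 0.31 and from Gcg by 0.69 and 0.71. Nearness to Sst was not particular to them: Irx2 (0.26 from Sst, 0.56 from Gcg), Slc7a2 (0.35, 0.51), Slc38a5 (0.36, 0.47), Ttr (0.41, 0.44) and Gc (0.38, 0.87) were also nearer to Sst than to Gcg. Irx1 was at about the same distance from both (0.42, 0.41), and Pou3f4 was nearer to Gcg (0.62, 0.35). Gcg ranged over 2.24 log2 units and Sst over 1.13, and all members but Pou3f4 ranged over less than Gcg. A gene of smaller range than Gcg can lie far from it even where both move together. These distances therefore do not tell which hormone gene a member followed.

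**Figure D3:**
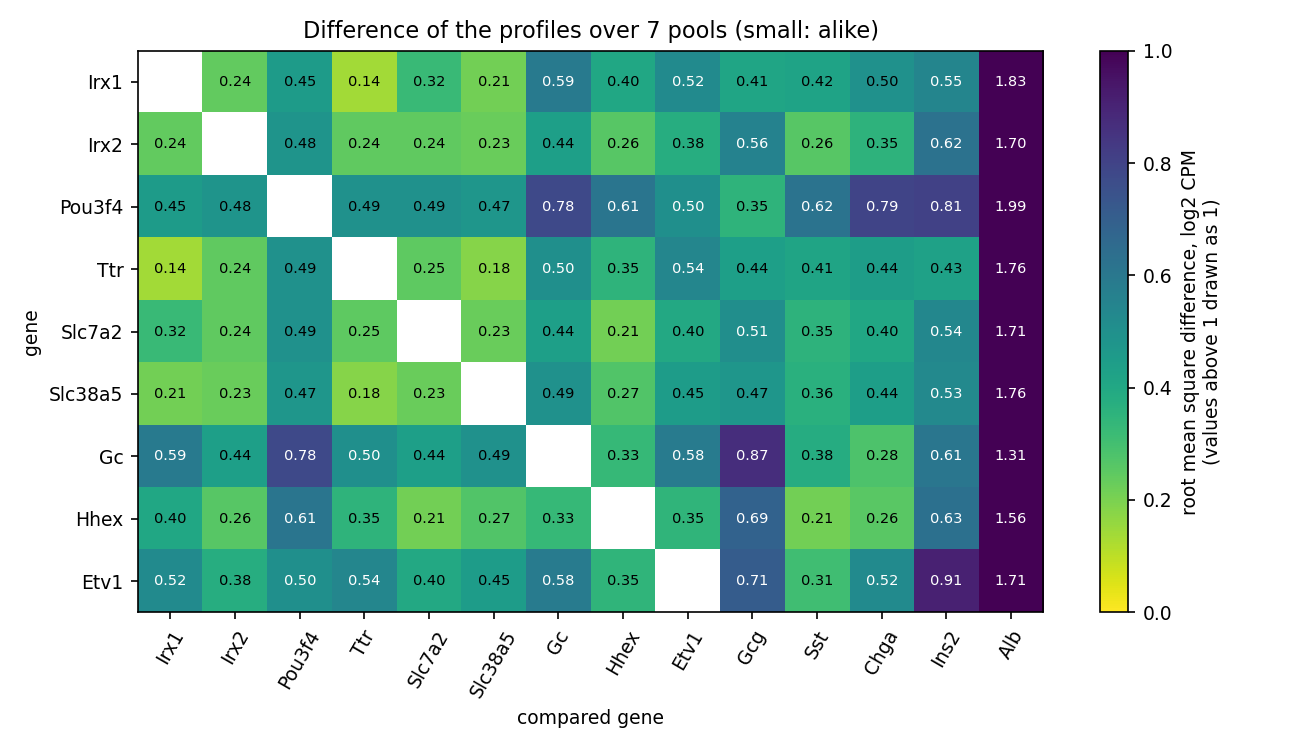
Root mean square difference between the log2 CPM profiles of each of the 9 genes (rows) and of the compared genes (columns) over the 7 pools, each profile with its own mean removed. Small values mean that the profiles lay close, and genes with swings of unlike size lie apart. Irx1 and Ttr have the smallest difference among the 9 genes (0.14), and the column of Alb holds the largest values.

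Gcg, the glucagon gene, varied more than 8 of the 9 members. In log2 CPM, Gcg stood at 11.92, 12.11 and 13.73 in the controls (pools 1, 2 and 4) and at 12.28, 12.79, 14.16 and 13.88 in βNrf2KO (pools 1 to 4) (log2 fold change 0.64 ± 0.54; edgeR, adjusted p = 0.685). It was higher in βNrf2KO in each of the 3 pairs of pool numbers, by 0.36, 0.68 and 0.15, as were 19.1% of all tested genes. Left-out pools gave estimates of 0.31 (βNrf2KO pool 3) to 1.45 (control pool 4). Gcg was highest in control pool 4 and βNrf2KO pools 3 and 4, where most members were also high, with Gc as the exception in the latter 2. In bulk islets a larger share of alpha cells and more RNA per alpha cell cannot be told apart. Some genes shared by endocrine cells were also highest in these 3 pools. Pcsk2 stood there at 10.96, 11.16 and 11.14 log2 CPM, against 9.85 to 10.85 elsewhere. Scg2 stood at 10.3, 10.3 and 10.1, against 8.83 to 9.96. Chga and Pax6 did not follow: Chga was lowest in βNrf2KO pool 4 (9.30) and Pax6 in control pool 4 (8.50). Other measures moved with the same 3 pools: the mitochondrial genome took 14.6%, 20.6% and 10.02% of their counts, against 22.4% to 51.8% in the other 4 pools. The erythroid marker sum was 116, 84.3 and 88.4 CPM there, against 147 to 224 CPM elsewhere, and the acinar marker sum was 66.2, 82.6 and 59.0 CPM, against 108 to 391 CPM elsewhere. The 7 tested acinar markers of 9 were all lower in βNrf2KO, as were 50.6% of all tested genes. Of the 7, 1 had unadjusted p under 0.05, against 8.46% of all tested genes in either direction. The 9 mesenchyme markers summed to 617 to 1576 CPM in control and 530 to 1050 CPM in βNrf2KO pools. In βNrf2KO 9 of 9 were lower, against the same 50.6%, and 6 had unadjusted p under 0.05, against the same 8.46%. None was past the threshold, although Myh11 of smooth muscle passed it with the block on pool number. The part of these measures in the members' values was not tested.

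Sst, the somatostatin gene, stood at 8.67, 9.21 and 9.57 log2 CPM in the controls (pools 1, 2 and 4) and at 8.44, 8.94, 9.09 and 8.89 in βNrf2KO (pools 1 to 4). βNrf2KO pools 1, 2 and 4 were each below the control pool of the same number, as for 17.9% of all tested genes, and the groups overlapped (log2 fold change -0.34 ± 0.22; edgeR, adjusted p = 0.625). With control pool 1 left out the estimate was -0.54, and with control pool 4 left out -0.11.

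Each member was then set against the hormone of its own cell type in the same pool, a ratio of counts that needs no library size. Hhex was the 1 member of 9 whose ratio did not overlap between the groups. Per 1000 Sst counts there were 29.9, 26.6 and 23.3 Hhex counts in the controls (pools 1, 2 and 4) and 33.8, 34.0, 34.0 and 35.5 in βNrf2KO (pools 1 to 4). All 4 βNrf2KO pools were above all 3 control pools, and the 4 lay very close together. The log2 ratio was -5.24 ± 0.18 over the control pools (SD, n = 3) and -4.87 ± 0.03 over the βNrf2KO pools (SD, n = 4), higher by 0.38 (exact two-sided permutation test, p = 0.0571, the smallest that 3 against 4 pools allow; adjusted over the 9 members, p = 0.514). Of 19665 tested genes with a count in every pool, 8.98% had a ratio to Sst that was higher in βNrf2KO without overlap and 0.376% one that was lower. The mean ratio to Sst was higher in βNrf2KO for 76.5% of genes. Hhex was also higher relative to Sst in each of the 3 pairs of pool numbers, as were 48.9% of these genes, against 2.69% lower in each pair. Counting error alone gives a log2 ratio an SE of 0.07 to 0.10 in these 4 pools, more than their SD. With Chga, a granin of all endocrine cells, as the denominator, the groups overlapped for Hhex and for the other 8 members.

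Etv1 had 98.8, 159 and 115 counts per 1000 Sst counts in the controls (pools 1, 2 and 4) and 94.1, 133, 144 and 171 in βNrf2KO (pools 1 to 4). The groups overlapped, and the log2 ratio differed by 0.12 (exact permutation test, p = 0.629). It was -0.03 without control pool 1.

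The 7 alpha members had lower mean ratios to Gcg in βNrf2KO, as did 94.2% of all genes with a count in every pool, and all 7 overlapped between the groups, where 0.849% of genes had a ratio to Gcg lower without overlap and 0.0254% a higher one. Irx1 came nearest to separation, with 1.79, 1.45 and 1.23 counts per 1000 Gcg counts in the controls (pools 1, 2 and 4) and 1.30, 1.10, 0.864 and 0.723 in βNrf2KO (pools 1 to 4). Only βNrf2KO pool 1 lay within the control range. Its log2 ratio differed by -0.60 (exact two-sided permutation test, p = 0.114, adjusted over the 9 members p = 0.514), and -0.45 to -0.74 when each pool was left out. The other 6 differed by -0.33 (Pou3f4) to -0.71 (Irx2), with exact permutation p-values of 0.171 to 0.457, and -0.06 was the smallest difference with a pool left out (Pou3f4, without control pool 2). Irx1, Irx2, Ttr and Slc38a5 were lower in each of the 3 pairs of pool numbers, as were 49.3% of genes relative to Gcg, against 3.18% higher in each pair. Without control pool 4 the groups did not overlap for 5 members, Irx1, Irx2, Slc7a2 and Slc38a5 (lower) and Hhex (higher), where 50.6% of genes were lower without overlap relative to Gcg and 10% higher relative to Sst. Without control pool 1 they did not overlap for Pou3f4 (lower, as for 1.1% of genes) and Hhex (higher, as for 44.3%), and without βNrf2KO pool 1 for Irx1 (lower, as for 3.29%) and Hhex (higher, as for 9.98%). With Chga as the denominator all 7 alpha ratios turned to higher in βNrf2KO, by 0.21 (Irx2) to 0.59 (Pou3f4), as did 70.3% of genes, so the direction changed with the denominator.

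**Figure D4:**
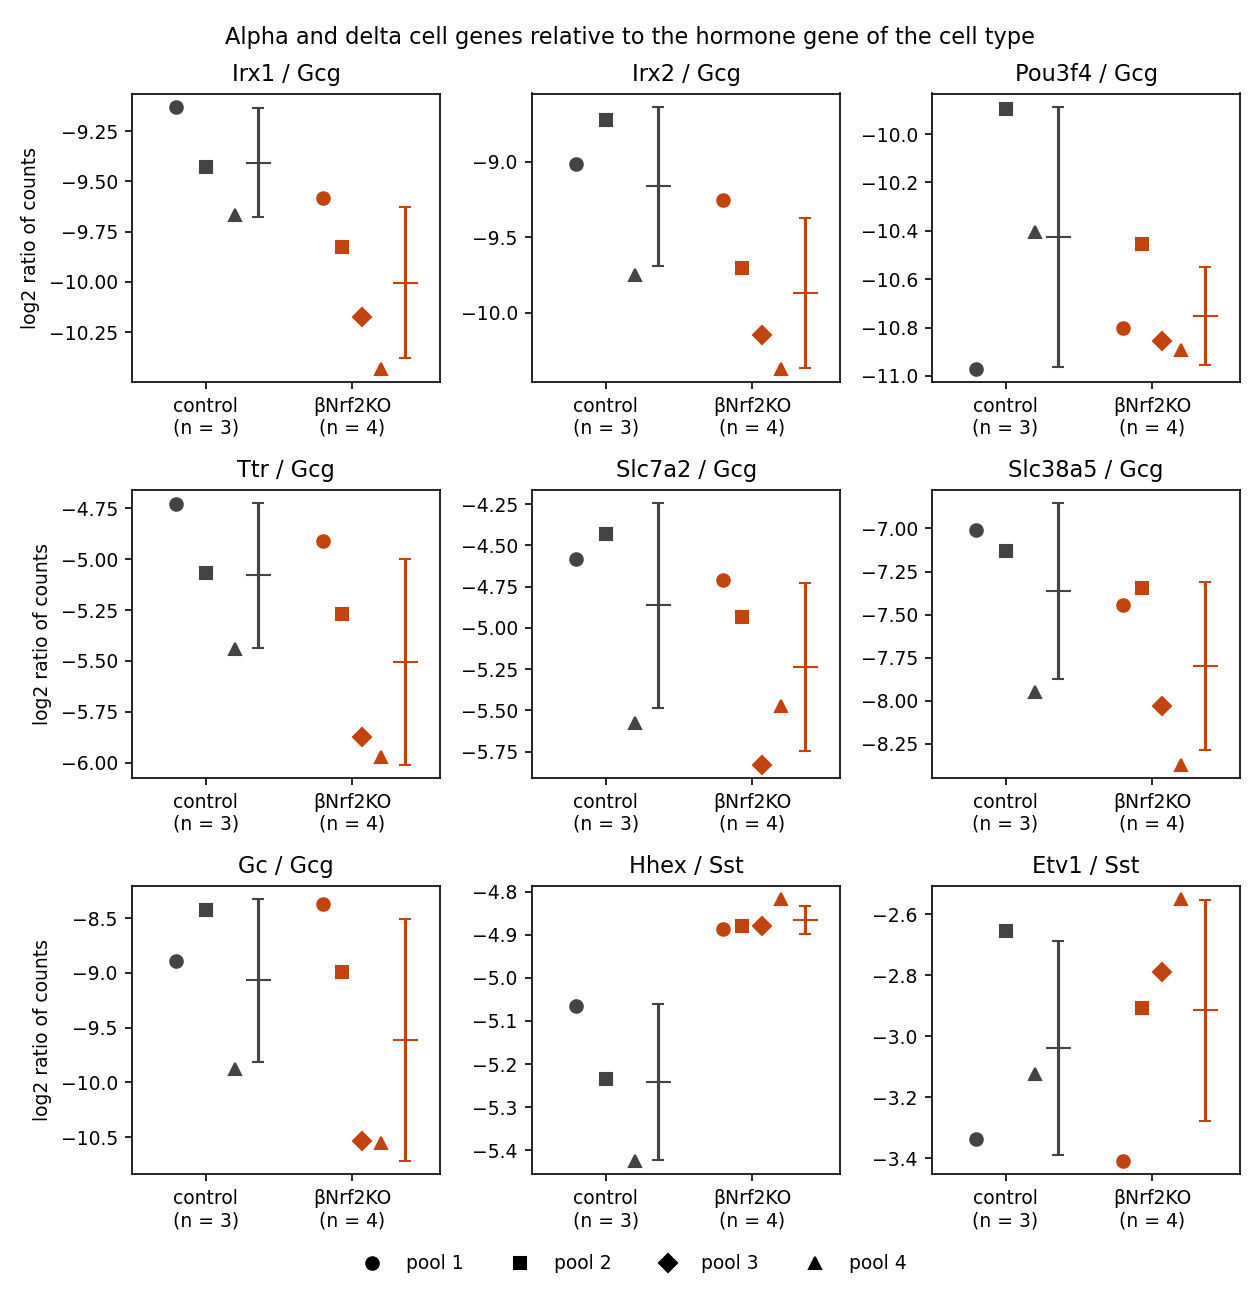
Log2 ratio of the counts of each of the 9 genes to Gcg (alpha genes) or Sst (Hhex, Etv1) in the same pool (vertical axes, each on its own scale); symbols mark the pool number, and bars give the mean and SD of 3 control and 4 βNrf2KO pools. The 4 βNrf2KO pools lie above all control pools for Hhex to Sst, and in the other panels the groups overlap.

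Other genes of alpha cells were tested beside the members, with 0 of 4 past the threshold, 2 above and 2 below 0, and a median of 0.10 against -0.0063 over all tested genes (log2 fold change). Beside Gcg these were Sphkap, an anchor of protein kinase A (0.22 ± 0.20; edgeR adjusted p = 0.707), Ldb2, a cofactor of LIM domain proteins (-0.02 ± 0.26), and Tmsb15l, of the beta thymosin family (-0.33 ± 0.43; edgeR adjusted p = 0.796). Of 8 other delta genes 7 were found under the symbols listed, and 0 of 7 passed, 4 higher and 3 lower (median 0.04). Frzb, a secreted Wnt antagonist, differed by 0.41 ± 0.35, Casr, the calcium-sensing receptor, by 0.04 ± 0.35 and Rbp4 by 0.28 ± 0.33. Among 12 genes shared by endocrine cells 0 passed, and 10 were higher and 2 lower (median 0.22), against 49.4% and 50.6% of all tested genes. Of the 12, 1 had unadjusted p under 0.05, against 8.46% of all tested genes. It was the transcription factor Neurod1 (0.53 ± 0.22; edgeR adjusted p = 0.571), named after its values were seen. The most abundant were the prohormone convertase Pcsk2 (0.50 ± 0.27), the granins Scg2 (0.43 ± 0.29) and Chga (-0.23 ± 0.16) and the transcription factor Pax6 (0.25 ± 0.16), with edgeR adjusted p-values of 0.572 to 0.632.

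Relatives of the factor members were mostly unread. Of 9 genes 6 did not pass the filter on low counts: Irx4 and Irx6 had 0 counts in every pool, and Irx5, Pou3f1, Pou3f2 and Pou3f3 at most 18. The 3 tested were Etv5 (-0.08 ± 0.21) and Etv4 (0.14 ± 0.40), ETS factors closely related to Etv1, and Irx3 (-0.74 ± 0.63, 10 to 41 counts). None passed (edgeR adjusted p = 0.904, 0.916 and 0.688).

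Amino acid transporters were read beside Slc7a2 and Slc38a5. Of 16 tested genes 0 passed the threshold, and 12 were higher and 4 lower in βNrf2KO with a median of 0.22, against 49.4% and 50.6% of all tested genes. At unadjusted p under 0.05, against 8.46% of all tested genes, there were 2, Slc7a5 (0.41 ± 0.18) and Slc36a4 (0.43 ± 0.19). Slc7a5 is the light chain of the large neutral amino acid transporter, and Slc36a4 is an amino acid transporter of the SLC36 family, named after its values were seen. Both had groups that did not overlap, as did 7% of all tested genes, and an edgeR adjusted p of 0.571. The other abundant members were Slc38a2, the widely expressed SNAT2 (-0.14 ± 0.17), Slc43a2, a transporter of branched-chain amino acids (0.13 ± 0.18), and Slc7a1, the arginine transporter CAT1 (0.23 ± 0.24).

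Plasma carriers and their partners were read beside Ttr and Gc. Of 11 genes 10 were tested and 0 passed the threshold, with 4 higher, 6 lower and a median of -0.09. Apoe, the gene of the lipid carrier apolipoprotein E, was the 1 of these 10 with unadjusted p under 0.05, against 8.46% of all tested genes. It differed by -0.73 ± 0.24 (edgeR, adjusted p = 0.571), and its groups overlapped. Trf, the gene of transferrin, differed by -0.17 ± 0.40 and Afm, a vitamin E binding member of the albumin family, by -0.32 ± 0.46. The 3 hormone genes of gamma and epsilon cells did not pass either: Ppy (pancreatic polypeptide) differed by 0.05 ± 0.37, Pyy (peptide YY) by -0.38 ± 0.28 and Ghrl (ghrelin) by -0.07 ± 0.40, and the median of the 3 was -0.07.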

How the data were processed

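RNA of islets from 7 pools of 5 animals each was sequenced after ribosomal RNA depletion. The tools named in the submitters' processing notes are STAR 2.5.2b, Trimmomatic 0.36, bcl2fastq 2.20 and, for counting, featureCounts (Subread 1.5.2). Whole-number counts for each gene, not normalized, were deposited by the authors. The notes name GRCm39, but 44772 of 48970 gene IDs shared with GENCODE M21 (91.4%) have that release's GRCm38 start and end. How strand and multi-mapping reads were handled, and from which annotation release, is not given in the sources used here. Cre, which is no mouse gene, entered neither the library sizes nor the tests.

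The 3 control and 4 βNrf2KO pools were compared with edgeR 4.0.16 (R 4.3.3; TMM, filterByExpr by group, robust quasi-likelihood F test, Benjamini-Hochberg over 19893 genes, threshold 0.05), tested on simulated data. The common biological coefficient of variation was 0.280. Log2 CPM, TPM (from the files' exonic lengths) and hormone ratios were computed from the counts, the last with exact permutation tests. DESeq2 1.42.0, limma 3.58.1, other scalings and filters, a block on pool number and leaving out each pool were alternatives. Deviations from the group means correlated at 0.376, 0.229 and 0.323 across genes between pools numbered 1, 2 and 4 in both groups, and from -0.353 to 0.241 between other numbers; the pairing comes from these correlations and the numbers in the titles.

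The members and lists were chosen with earlier results of these data known. Named were all members, Gcg, Sst, Irx4, the 2 nearest profiles of each member (1 for Pou3f4) and up to 4 genes of highest mean log2 CPM from each other list (alpha, delta, gamma and epsilon, pan-endocrine, relatives of the factors, amino acid transport, plasma carriers). Other names are given with the reason. Some genes of the alpha lists are not reported here.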

Additional observations from a re-analysis of the deposited data

Results flagged for a closer look

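The log2 ratio of Hhex to Sst in βNrf2KO pool 4, -4.82, stood apart from the other 3 pools of its group, which lay between -4.89 and -4.88. Its gap to the nearest pool was 0.890 of the group's range, above Dixon's 95% critical value for 4 samples. It was the 1 group of 44 tested to do so, where chance gives about 1 in 20. The group's SD, 0.03, was below the counting SE of a single pool, 0.07 to 0.10.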

How the results depend on the processing

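The number of members past the threshold was 0 under all alternatives run: RLE and upper-quartile scaling, nuclear genes only, no filter, a filter of 1 CPM in at least 3 pools, DESeq2, limma-voom with quality weights, an adjusted p of 0.1, the replicate block and each pool left out. Over all tested genes DESeq2 called 1 and the block 14, against 0 by edgeR without the block. No scaling turned the sign of a member. The replicate block turned the log2 fold change of Irx1 to -0.16, Hhex to -0.013, Ppy to -0.22 and Alb to -0.059, and changed no call of a member or of a gene in the lists of endocrine cells, factor relatives, transporters and carriers; among the markers of other cells it added Myh11 and Stmn2. With limma-voom Irx2 was at 0.0097, Etv1 at 0.015, Ldb2 at 0.11, Ghrl at 0.0064, Alb at -1.05 and Afm at 0.18. With single pools left out the log2 fold change ran from -0.26 to 0.62 for Irx1, -0.27 to 0.30 for Irx2, -0.21 to 0.98 for Pou3f4, -0.041 to 0.70 for Ttr, -0.090 to 0.29 for Gc, -0.067 to 0.19 for Hhex and -0.49 to 0.0076 for Etv1, and among listed genes from -0.19 to 0.15 for Ldb2, -0.23 to 0.52 for Casr, -0.20 to 0.31 for Ppy, -0.66 to 0.018 for Pyy, -0.34 to 0.40 for Ghrl, -0.26 to 0.014 for Etv5, -0.19 to 0.65 for Etv4, -0.25 to 0.046 for Slc38a2, -0.013 to 0.32 for Slc43a2, -0.58 to 0.38 for Alb, -0.41 to 0.053 for Trf and -0.67 to 0.62 for Afm. With no change of sign, left-out pools moved Sphkap over 0.055 to 0.45, Tmsb15l -0.64 to -0.12, Frzb 0.10 to 1.08, Rbp4 0.033 to 0.73, Pcsk2 0.28 to 0.86, Scg2 0.15 to 0.95, Chga -0.31 to -0.11, Irx3 -1.32 to -0.37 and Slc7a1 0.032 to 0.51. The count of members whose hormone ratio did not overlap was 1. It was 0 with Chga and 0 with Gcg and Sst summed as the denominator, and 1 to 5 with single pools left out. The 5 came without control pool 4, where 50.6% of genes were lower without overlap relative to Gcg and 10% higher relative to Sst. There were 2, 1 of them Hhex, without control pool 1 (1.1% lower relative to Gcg, 44.3% higher relative to Sst) or βNrf2KO pool 1 (3.29% and 9.98%). With Chga the log2 ratio differed by 0.32 for Irx1, 0.21 for Irx2, 0.59 for Pou3f4, 0.49 for Ttr, 0.54 for Slc7a2, 0.48 for Slc38a5 and 0.37 for Gc. With Gcg and Sst summed it differed by -0.56 for Hhex and -0.81 for Etv1. The Etv1 ratio ran from -0.026 to 0.32 with single pools left out. The causes of these changes were not tested. With 3 and 4 pools the widest member interval spans -0.96 to 1.35 (Pou3f4), and the counts of Pou3f4, Irx1 and Irx2 start at 34, 97 and 132.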
